A study of Xenopus laevis with 37 samples.

Results

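Epidermal marker genes were followed through explants of the Xenopus laevis gut region by RNA-seq at stage NF20. They are the rows itln1.L, tp63.L, tp63.S and dlx3.L of the deposited gene table, chosen by name, and make up 4 of its 40271 features. The endings .L and .S mark the paired copies (homeologs) that many genes of this species have. The table gives TPM, a level corrected for transcript length and library size, in 37 libraries of 15 groups. All 4 rows passed the filter used for testing, which asked for at least 1 TPM in at least 2 libraries and kept 28863 features.

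In the inhibitor experiment, embryos were kept from stage NF12 to NF20 in the solvent DMSO, in 40 µM DMH1 or in 60 µM BIO. DMH1 blocks BMP type I receptors, and BIO inhibits the kinase GSK3, which switches on canonical Wnt signalling. Explants from the foregut (FG) and the hindgut (HG) make up 6 groups of 3 libraries, FG_DMSO, FG_DMH1, FG_BIO, HG_DMSO, HG_DMH1 and HG_BIO. The heat shock experiment has 4 groups of 2 libraries. FG_HSdkk1 and HG_HSdkk1 had a pulse of 30 min at 37C, then 13C, to switch on a heat shock promoter transgene for Dkk1 and GFP, and FG_noHS and HG_noHS had no heat. Foregut and hindgut endoderm and mesoderm explants (FG_endo, FG_meso, HG_endo and HG_meso) have 2 libraries each, and 3 libraries came from dorsal explants. The genotype field reads wild type in every sample, the heat shock samples included. A heated control lacking the transgene is not among them. The labels call the replicates independent. The tissue field of HG_meso says endoderm, and those libraries were grouped by their title. Library depth is not known from TPM, so no counting error is given.

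In frog embryos BMP signals direct ectoderm away from neural fate and towards epidermis. The transcription factor p63, the product of tp63, marks and maintains the deep, basal cells of the epidermis. The homeobox factor encoded by dlx3 acts in non-neural ectoderm and is switched on there by BMP signals. The itln1 gene, also called xeel, encodes a secreted intelectin that is made by mucus-secreting cells of the outer epidermal layer.

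The germ layer explants show where these genes were measured. All 4 genes were between 0 and 9.26 TPM in endoderm and far higher in the explants labelled mesoderm, in foregut and in hindgut. For itln1.L the endoderm libraries read 0 and 9.26 TPM (FG_endo) and 1.04 and 3.86 TPM (HG_endo), against 5999 and 7857 TPM in FG_meso and 5152 and 6874 TPM in HG_meso. For dlx3.L they read 0.48 and 0.16 TPM in FG_endo and 0.51 and 0.26 TPM in HG_endo, against 137.3 and 120.1 TPM in FG_meso and 78.2 and 62.5 TPM in HG_meso. No endoderm library came near a mesoderm library for either gene.

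The tp63 copies were lower in level but divided the layers in the same way. The level of tp63.L was 12.8 and 17.3 TPM in FG_meso and 22.8 and 18.4 TPM in HG_meso, and that of tp63.S was 10.9 and 16.5 TPM and 14.6 and 21.2 TPM. In FG_endo tp63.L read 0 and 0.21 TPM and tp63.S 0 and 0.19 TPM, and both were listed at 0 in both HG_endo libraries. The groups, of 2 libraries each, did not overlap for any of the 4 genes. The share of all features without overlap was not counted, so this is not a test.

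On the log2(TPM + 1) scale, which understates changes of low genes, all 4 genes were called higher in FG_meso than in FG_endo, where 18% of all features tested were called higher and 26.5% in either direction. The difference was 11.07 (SE 0.61) for itln1.L, 6.63 (SE 0.22) for dlx3.L, 3.85 (SE 0.29) for tp63.L and 3.73 (SE 0.25) for tp63.S. The limma adjusted p was 1.67e-18 for dlx3.L and 2.13e-11 for tp63.L, the smallest and the largest of the 4. In hindgut all 4 were called higher again, against 21.6% of all features (33.2% in either direction), with differences from 4.22 (SE 0.25) for tp63.S to 10.88 (SE 0.61) for itln1.L and limma adjusted p from 4.72e-17 to 1.44e-12.

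The labels do not name ectoderm, yet lists of epidermal genes, some of which include the members, followed the same layers. Of 28 rows for regulators of epidermis, such as grhl3.L, tfap2c.L and the members tp63 and dlx3, limma called 20 higher and 1 lower in FG_meso than in FG_endo, with a median log2 difference of 3.60 beside 0.08 for all features. Of 7 rows for ionocytes, the acid-secreting cells of the frog skin, all 7 were higher, among them foxi1.L (log2 difference 6.49, SE 0.55). The foxi1 gene is also in the list of regulators. Of 19 tested rows for multiciliated cells 15 were higher and none lower. In hindgut these counts were 19 higher and 1 lower of 28, 7 of 7, and 15 of 19. Endoderm markers ran the other way: the summed level of that list was 123.4 to 131.6 TPM in FG_meso and 2994 to 6606 TPM in FG_endo, and 76.1 to 101.0 TPM in HG_meso against 9711 to 10120 TPM in HG_endo. Of 23 rows for mesoderm 9 were higher and none lower in FG_meso (median 0.16), and 15 were higher and 2 lower in HG_meso (median 2.47). Of 28 tested rows for differentiated epidermis 24 were higher and none lower in FG_meso, and 18 were higher and 2 lower in HG_meso. The summed level of this list was 27150 to 31250 TPM in HG_meso, whose tissue field says endoderm, and 4637 to 5193 TPM in HG_endo. That sum includes itln1.L, at 5152 to 6874 TPM in HG_meso.

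**Figure D1:**
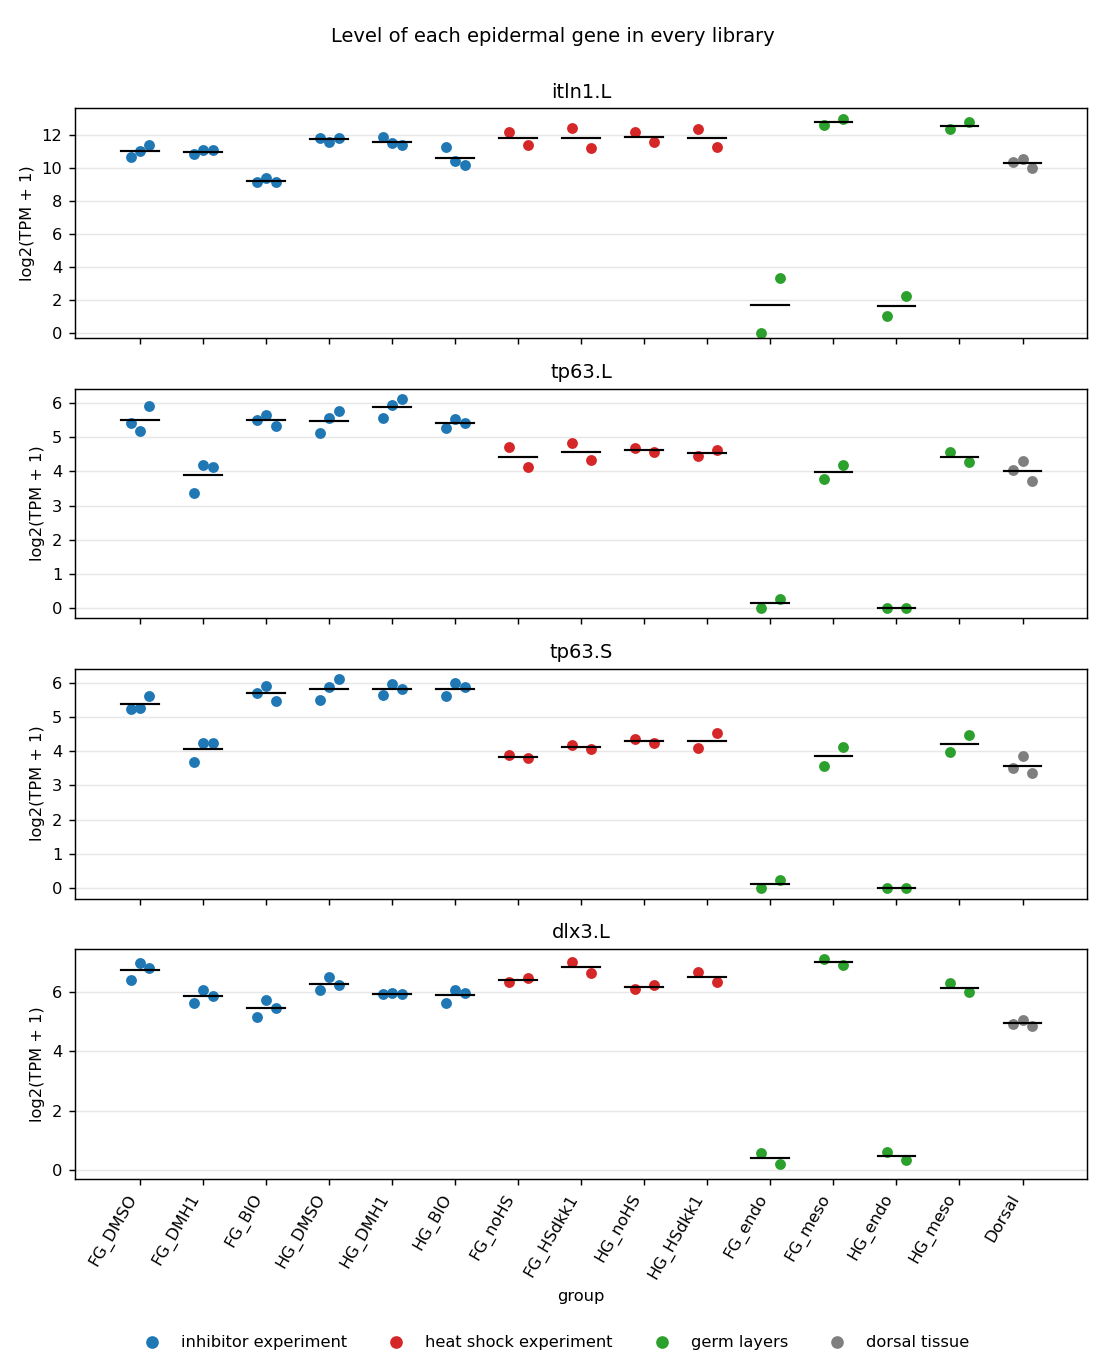
Level of itln1.L, tp63.L, tp63.S and dlx3.L as log2(TPM + 1) in each of the 37 libraries, by group. Points are libraries and bars are group means of these log values. The endoderm libraries are lowest for every gene. Within the inhibitor experiment, tp63 is lowest in FG_DMH1 and itln1.L in FG_BIO.

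Across all 15 groups the genes did not share one order of levels. For itln1.L the mesoderm explants were highest and, endoderm apart, FG_BIO was lowest at 592 ± 56 TPM (SD, n = 3). For dlx3.L, FG_meso was highest and the dorsal explants, at 29.8 ± 2.54 TPM (SD, n = 3), were lowest apart from endoderm. For tp63.L the highest mean was 58.3 ± 11.1 TPM in HG_DMH1, and for tp63.S it was 56.4 ± 11.9 TPM in HG_DMSO (SD, n = 3 each). Most neighbours in these orders could not be told apart by their ranges. Of 14 neighbouring pairs of groups, the ranges overlapped in 11 for itln1.L, 12 for tp63.L, 12 for tp63.S and 11 for dlx3.L.

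The neighbours whose ranges lay apart differed between genes. For itln1.L they were HG_DMH1 and FG_DMSO, by less than 1 TPM (2668.54 against 2667.96 TPM), the dorsal explants and FG_BIO, and FG_BIO and FG_endo. For both tp63 copies a step separated the inhibitor experiment, except FG_DMH1, from all other groups, and another set endoderm apart. For dlx3.L they were HG_meso and HG_DMH1 (lowest 62.45 against highest 61.74 TPM), FG_BIO and the dorsal explants, and the dorsal explants and HG_endo.

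In the vehicle libraries itln1.L read 1577, 2022 and 2668 TPM in FG_DMSO and 3602, 2942 and 3506 TPM in HG_DMSO, so that every hindgut library was above every foregut library. The log2 difference of 0.71 (SE 0.50) did not pass (limma adjusted p = 0.532). The spread of itln1.L was estimated over all groups, including endoderm where it was near 0. Among the alternative fits its smallest limma adjusted p was 0.0854. The dlx3.L levels leaned the other way, with 83.3, 125.3 and 111.5 TPM in FG_DMSO and 66.1, 89.2 and 74.6 TPM in HG_DMSO. These ranges overlapped, and the log2 difference of −0.46 (SE 0.18) did not pass (limma adjusted p = 0.131). In the blocked fit, with replicate number as a term, dlx3.L passed (adjusted p = 0.0092), and also without FG_DMSO replicate 1 (0.0491).

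The tp63 copies were close in both regions. The level of tp63.L was 41.2, 35.1 and 59.4 TPM in FG_DMSO and 33.7, 46.4 and 52.8 TPM in HG_DMSO, and that of tp63.S was 36.9, 37.4 and 47.9 TPM against 43.8, 57.9 and 67.5 TPM. Their ranges overlapped, and the log2 differences were −0.02 (SE 0.23) and 0.45 (SE 0.20, limma adjusted p = 0.231 for tp63.S). So limma called 0 of the 4 genes between vehicle hindgut and foregut, where it called 7.47% of all features. At an unadjusted p under 0.05 tp63.S (0.0352) and dlx3.L (0.0144) would pass. After median-of-ratios scaling, which moved the median of all features from −0.12 to 0.01, tp63.S passed (log2 difference 0.63, adjusted p = 0.0476). Most markers of cement gland and neural plate were lower in hindgut. All 9 cement gland rows were lower (median −5.69), with summed levels of 142 to 162 TPM in HG_DMSO against 6447 to 10140 TPM in FG_DMSO, and 18 of 28 neural plate rows were lower and 2 higher (median −1.76). Their part in the dlx3.L values was not tested.

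DMH1, given to block BMP receptors, was compared with vehicle in foregut. Whether the genes depend on BMP signalling was not tested. Both tp63 copies and dlx3.L fell, while itln1.L stayed within the spread of the vehicle libraries. The level of tp63.L was 9.37, 17.2 and 16.6 TPM in FG_DMH1, against the 35.1 to 59.4 TPM of FG_DMSO, and that of tp63.S was 11.9, 17.9 and 17.96 TPM against 36.9 to 47.9 TPM. Treated means were 0.318 and 0.390 of the vehicle means, and no treated library reached a vehicle library. The dlx3.L level was 48.8, 65.7 and 57.9 TPM, 0.539 of the vehicle mean and again without overlap. How many of all features also lacked overlap was not counted. For both tp63 copies the FG_DMH1 range overlapped those of the dorsal, FG_meso and FG_noHS libraries, whose labels name no DMH1.

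The log2 differences were −1.60 (SE 0.23) for tp63.L, −1.32 (SE 0.20) for tp63.S and −0.87 (SE 0.18) for dlx3.L. All 3 passed (limma adjusted p = 2.08e-04, 3.86e-04 and 0.00937), in a comparison where 0.509% of all features were called lower and 0.738% were called in either direction. The itln1.L level was 1820, 2110 and 2117 TPM, with a log2 difference of −0.02 (SE 0.50). When only these 6 libraries were fitted, none of the 3 genes passed (adjusted p = 0.0999, 0.0692 and 0.154). The dlx3.L call was also lost without FG_DMSO replicate 2 (0.0981) or 3 (0.0767) or FG_DMH1 replicate 1 (0.0918), and with homeologs summed (0.0996) or a pseudocount of 0.1 (0.136).

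Few other epidermal genes passed the test under DMH1 in foregut. Of the 28 regulator rows 4 were lower and none higher, and these 4 were tp63.L, tp63.S, dlx3.L and gata2.L (log2 difference −0.85, SE 0.19), a zinc finger factor that BMP signals switch on in ventral ectoderm. The list's median was −0.10, beside 0 for all features. Of 28 tested rows for differentiated epidermis 1 was lower, krt8.2.L (−1.39, SE 0.26), and none of the 7 ionocyte rows or 19 multiciliated rows passed. The summed level of the differentiation list was 15520 to 20220 TPM in FG_DMH1 and 14110 to 21900 TPM in FG_DMSO. Of 30 rows for genes that BMP signals control, including msx, ventx and id genes, 15 were lower and none higher (median −1.26). None of 9 cement gland rows passed (median −0.69), and their summed level was 1853 to 6820 TPM in FG_DMH1 and 6447 to 10140 TPM in FG_DMSO. Of 28 neural plate rows 2 were higher and none lower (median 0.66), the proneural genes neurog1.L (2.86, SE 0.29) and neurog2.S (1.25, SE 0.25), with summed levels of 794 to 1104 TPM against 394 to 1055 TPM. Of 18 neural crest rows 1 was higher and 1 lower, and of 16 endoderm rows none passed. Of 23 mesoderm rows 4 were lower and none higher, among them tbx20.L (−3.12, SE 0.36) and tal1.S (−2.90, SE 0.42), factors of heart and blood. The part of these tissues in the result was not tested. In bulk samples, fewer cells of a type and less RNA per cell cannot be told apart.

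In hindgut none of the 4 genes passed the test under DMH1. The level of tp63.L was 46.4, 60.3 and 68.3 TPM in HG_DMH1 against 33.7 to 52.8 TPM in HG_DMSO, and that of tp63.S was 49.3, 60.9 and 55.7 TPM against 43.8 to 67.5 TPM. The ranges overlapped for both, and the log2 differences were 0.40 (SE 0.23) and −0.01 (SE 0.20). The dlx3.L level was 59.6, 61.7 and 60.3 TPM, just below the 66.1 to 89.2 TPM of the vehicle (−0.32, SE 0.18, limma adjusted p = 0.766). The itln1.L level was 3731, 2849 and 2669 TPM (−0.13, SE 0.50). So 0 of the 4 genes were called, where 1.16% of all features were (unadjusted p from 0.0772 for dlx3.L to 0.955 for tp63.S). Among the 28 regulator rows dlx6.S and dlx6.L were called higher and gata2.S lower (log2 difference −0.94, SE 0.21). Among 28 tested rows for differentiated epidermis 1 was higher, epcam.S (1.11, SE 0.16), and none lower. Of the 30 rows for BMP-controlled genes 13 were lower and none higher (median −0.99).

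The difference between regions passed for tp63.L. The DMH1 effect on tp63.L was higher in hindgut than in foregut by 1.99 on the log2 scale (SE 0.33, limma adjusted p = 0.00557), a test that called 0.149% of all features. For tp63.S the difference was 1.31 (SE 0.29) and did not pass (limma adjusted p = 0.0597). It passed in the blocked fit (0.0103), without the germ layer libraries (0.0374) and without HG_DMSO replicate 3 (0.0414). With both copies summed, tp63.L included, the difference was 1.67 (limma adjusted p = 0.018). For dlx3.L it was 0.55 (SE 0.25) and for itln1.L −0.11 (SE 0.70), and neither passed. The tp63.L call was lost in a fit to the 12 libraries of these 4 groups (adjusted p = 0.134), without the number 1 libraries of the experiment (0.102) and with a pseudocount of 0.1 (0.113).

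**Figure D2:**
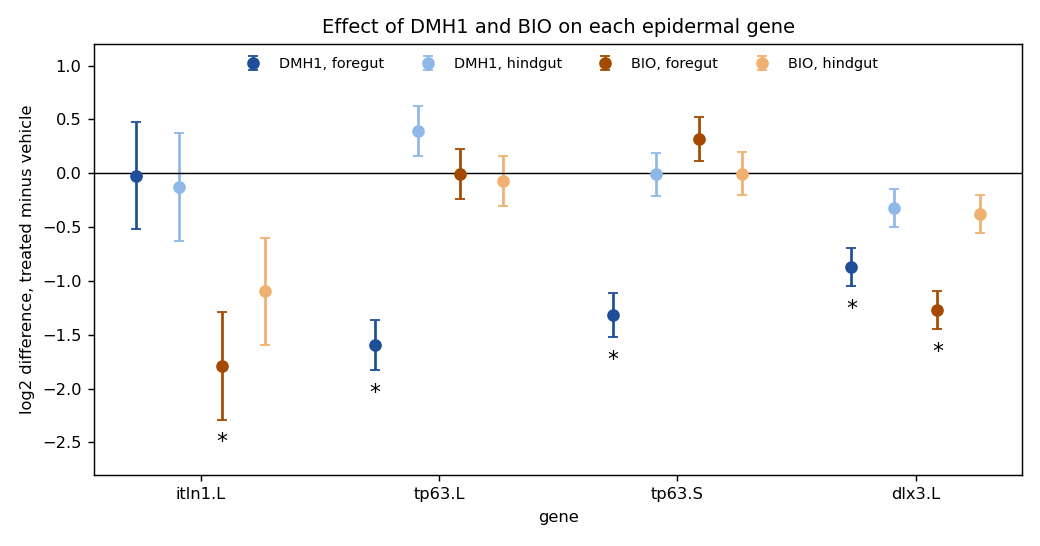
Log2 difference (treated minus vehicle, on log2(TPM + 1)) of each gene under DMH1 and BIO in foregut and hindgut, 3 libraries per group. Error bars are standard errors from limma and stars mark an adjusted p under 0.05. Both tp63 copies and dlx3.L are starred as lower under DMH1 in foregut, itln1.L and dlx3.L under BIO in foregut, and no gene is starred in hindgut.

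BIO, given to activate Wnt signalling, was compared with vehicle in foregut, and a different set of members passed the test. The outer layer gene itln1.L and dlx3.L fell, and neither tp63 copy passed. The level of itln1.L was 562, 657 and 558 TPM in FG_BIO, against 1577 to 2668 TPM in FG_DMSO, which is 0.283 of the vehicle mean. The level of dlx3.L was 35.0, 52.5 and 43.2 TPM against 83.3 to 125.3 TPM, or 0.408 of the vehicle mean. Neither gene's groups overlapped, and the share of all features without overlap was not counted.

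The log2 difference was −1.79 (SE 0.50, limma adjusted p = 0.0276) for itln1.L and −1.27 (SE 0.18, limma adjusted p = 2.0e-05) for dlx3.L, and 4.5% of all features were called lower, or 6.43% in either direction. The spread of itln1.L was estimated over all groups, including endoderm where it was near 0. With the germ layer libraries left out its adjusted p was 6.33e-04, but the call was lost without FG_DMSO replicate 2 (0.0802) or 3 (0.136), without FG_BIO replicate 1 (0.0881), 2 (0.0558) or 3 (0.0948), without the number 1 libraries of the experiment (0.122), with a pseudocount of 0.1 (0.27) and after median-of-ratios scaling (0.0538). The homeolog dlx3.S was called lower too (−0.98, SE 0.22, limma adjusted p = 0.00631).

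The level of tp63.L was 44.4, 49.0 and 39.0 TPM in FG_BIO and that of tp63.S was 50.9, 58.7 and 43.5 TPM. Both ranges overlapped those of the vehicle, with log2 differences of −0.01 (SE 0.23) and 0.32 (SE 0.20, limma adjusted p = 0.461). The 2 tp63 copies together came to 14.8% to 17.0% of the itln1.L level in FG_BIO, 3.59% to 4.95% in FG_DMSO and 1.17% to 1.66% in FG_DMH1, on the TPM scale. These 3 ranges did not overlap, which follows from the values above and is not a separate test. In hindgut the share was 3.57% to 8.41% in HG_BIO, 2.15% to 3.54% in HG_DMSO and 2.56% to 4.65% in HG_DMH1. The HG_DMH1 range overlapped both others.

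Of the 28 regulator rows 4 were higher and 3 lower under BIO in foregut (median 0.05, beside −0.08 for all features), and dlx6.S (1.76, SE 0.39) and tfap2e.S (1.35, SE 0.37) were among the higher ones. Of 28 tested rows for differentiated epidermis 6 were lower and none higher (median −0.465), with cdh1.L, ppl.L and pkp3.S, which encode junction proteins, beside itln1.L. Of 19 multiciliated rows 4 were lower, and 1 of 7 ionocyte rows, ca2.S. The ionocyte list as a whole did not lean lower, with a median of 0.22. Its summed level was 296 to 589 TPM in FG_BIO and 228 to 398 TPM in FG_DMSO. The cement gland, a mucus-secreting organ of the head ectoderm, moved with itln1.L and dlx3.L. Of its 9 marker rows 7 were lower and none higher (median −3.56). Their summed level was 360 to 1490 TPM in FG_BIO against 6447 to 10140 TPM in FG_DMSO. Of 18 neural crest rows 4 were higher and 1 lower, and of 28 neural plate rows 3 were higher, such as zic1.S, and 4 lower, such as six3.S. Of the 30 rows for BMP-controlled genes 12 were lower and 3 higher (median −0.55), bmp4.L and bmp7.1.S being among the lower ones. Of 23 mesoderm rows 9 were lower and 3 higher, and their summed level was 66.6 to 84.0 TPM against 263 to 372 TPM in FG_DMSO. The part of these other tissues in the result was not tested.

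In hindgut the BIO values leaned the same way without passing. The itln1.L level was 2391, 1360 and 1167 TPM in HG_BIO against 2942 to 3602 TPM in HG_DMSO (−1.10, SE 0.50, limma adjusted p = 0.736), and that of dlx3.L was 48.9, 66.0 and 61.8 TPM against 66.1 to 89.2 TPM (−0.37, SE 0.18, adjusted p = 0.78). The treated and vehicle libraries did not overlap for either gene, for dlx3.L only narrowly (65.96 against 66.08 TPM). The share of all features without overlap was not counted. The tp63.L level was 37.7, 45.5 and 41.2 TPM and the tp63.S level 47.8, 62.5 and 56.9 TPM, inside the vehicle ranges. So 0 of 4 genes were called, and 0.0277% of all features. At an unadjusted p under 0.05, itln1.L (0.0369) and dlx3.L (0.0437) would pass. The spread of itln1.L again included the endoderm groups, and its smallest limma adjusted p among the alternative fits was 0.154.

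The difference of the BIO effect between regions did not pass for any of the 4 genes (limma, where 0.828% of all features did). It was 0.90 (SE 0.25, adjusted p = 0.113) for dlx3.L and 0.69 (SE 0.70, adjusted p = 1) for itln1.L. For dlx3.L it passed in the blocked fit (adjusted p = 0.00328) and without FG_DMSO replicate 1 (0.0354). Both inhibitors were compared with the same vehicle libraries, so their effects are not independent.

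The other dlx genes belong to a family of homeobox factors that acts in vertebrate limbs, placodes and pharyngeal arches. Under DMH1 in foregut dlx2.L (−3.72, SE 0.42) and dlx2.S (−3.79, SE 0.41) were called lower, and under DMH1 in hindgut dlx2.L (−3.76, SE 0.42) and dlx2.S (−2.26, SE 0.41) as well. The dlx6 genes went the other way, with dlx6.L at 1.90 (SE 0.42) and dlx6.S at 2.31 (SE 0.39) under DMH1 in hindgut, both called higher. No dlx5 row passed in any of the 4 treatment comparisons. The homeolog dlx3.S leaned lower with DMH1 in foregut but did not pass (−0.66, SE 0.22, limma adjusted p = 0.28).

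**Figure D3:**
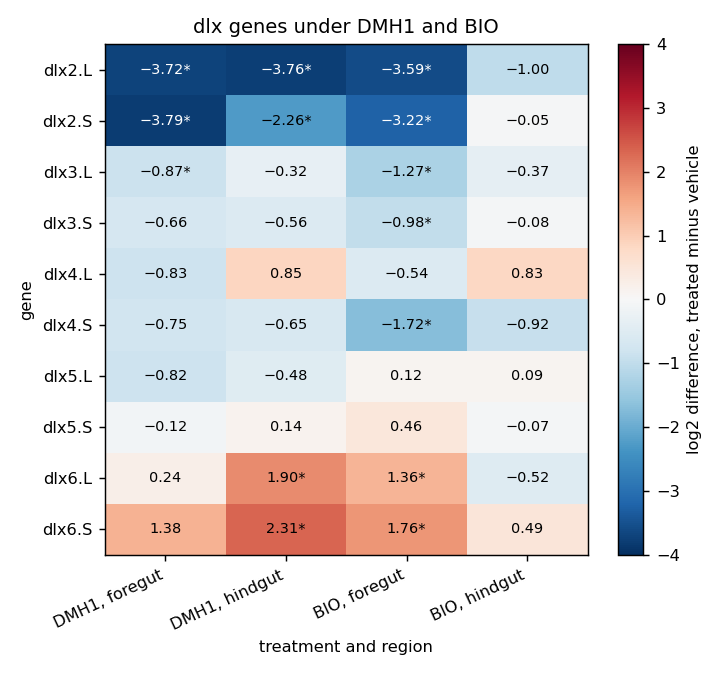
Log2 difference (treated minus vehicle) of the dlx rows under DMH1 and BIO in foregut and hindgut, with the value in each cell, blue for lower and red for higher, and a star for a limma adjusted p under 0.05. The starred dlx2 cells (DMH1 in both regions, BIO in foregut) are all lower and the starred dlx6 cells all higher, while under BIO in hindgut no cell is starred.

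Dkk1 is a secreted Wnt antagonist, so its heat activation is meant to lower the signalling that BIO raises. Whether Wnt signalling fell in these libraries was not examined here, and heat and transgene cannot be told apart. None of the 4 genes was called in either region, where limma called 0.0243% of all features in foregut and 0.00693% in hindgut. The dlx3.L level was 129.8 and 98.2 TPM in FG_HSdkk1 against 80.2 and 87.4 TPM in FG_noHS, and 102.6 and 79.98 TPM in HG_HSdkk1 against 68.3 and 74.3 TPM in HG_noHS. Heated libraries were thus above unheated ones in both regions, by 0.43 (SE 0.22) and 0.34 (SE 0.22) on the log2 scale, but neither passed (adjusted p = 1 for both, unadjusted p = 0.0583 and 0.125).

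The itln1.L level varied more within these groups than between them. It was 5311 and 2350 TPM in FG_HSdkk1, 4527 and 2692 TPM in FG_noHS, 5274 and 2487 TPM in HG_HSdkk1, and 4624 and 3016 TPM in HG_noHS. For tp63.L the heated foregut libraries read 27.5 and 19.0 TPM and the unheated ones 25.02 and 16.6 TPM, and in hindgut 21.0 and 23.6 TPM against 24.9 and 22.6 TPM. These ranges overlapped in both regions. For tp63.S they read 17.1 and 15.6 TPM against 13.8 and 12.8 TPM in foregut, and 15.9 and 22.2 TPM against 19.5 and 17.8 TPM in hindgut. The foregut ranges, of 2 libraries each, did not overlap, but the difference did not pass (0.28, SE 0.25, limma adjusted p = 1). All 8 log2 differences lay between −0.09 and 0.43. Between unheated hindgut and foregut 0 of the 4 genes were called, where 1.39% of all features were. The groups, of 2 libraries each, did not overlap for tp63.S (0.46, SE 0.25) and dlx3.L (−0.23, SE 0.22), with limma adjusted p of 0.824 and 1. The share of all features without overlap was not counted, so this is not read as a difference. The difference between regions in the heat effect passed for none of the 4 (0.0139% of all features).

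The unheated libraries held less tp63 than the vehicle libraries of the inhibitor experiment. The summed level of both copies was 72.5 to 107.3 TPM in FG_DMSO and 77.5 to 120.3 TPM in HG_DMSO, and 29.45 to 38.8 TPM in FG_noHS and 40.3 to 44.4 TPM in HG_noHS. In the mesoderm explants it was 23.7 to 39.5 TPM, although itln1.L was highest there. These experiments share no group, so the difference was not tested, and experiment and treatment cannot be told apart.

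**Figure D4:**
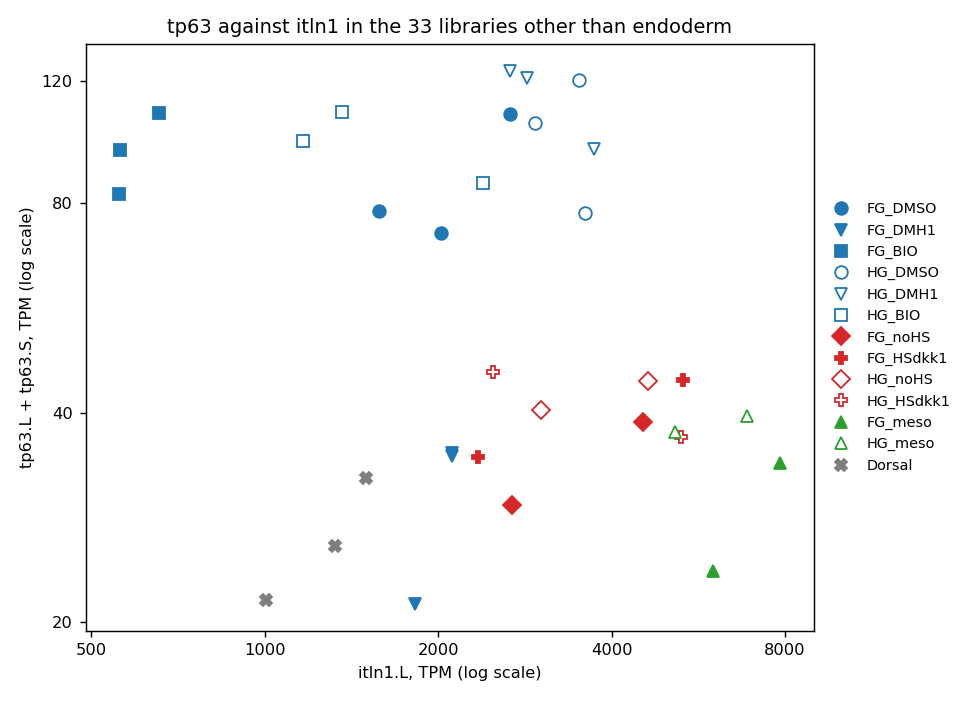
Summed level of both tp63 copies against itln1.L, in TPM on log axes, in the 33 libraries other than endoderm. Colour gives the experiment as in the plot of levels by group, filled symbols are foregut or dorsal and open symbols hindgut. The FG_BIO libraries lie at low itln1.L with tp63 of 82.5 to 107.7 TPM, and the FG_DMH1 libraries at tp63 of 21.2 to 35.0 TPM. The dorsal libraries (21.5 to 32.2 TPM) and the FG_meso libraries (23.7 to 33.8 TPM) lie at similar tp63.

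Between the mesoderm explants of hindgut and foregut, dlx3.L was the only one of the 4 genes called. Its mean was 70.3 TPM in HG_meso, 0.546 of the FG_meso mean, without overlap (log2 difference −0.87, SE 0.22, limma adjusted p = 0.0249), and 0.915% of all features were called lower, or 2.35% in either direction. The tp63.L libraries, 2 per group, did not overlap either, HG_meso being higher, but the difference did not pass (0.43, SE 0.29, adjusted p = 0.66). With 2 libraries per group, a lack of overlap is not a test. Cement gland markers moved with dlx3.L, 8 of 9 rows being lower and none higher (median −3.73), and their summed level was 200 to 246 TPM in HG_meso against 2852 to 5623 TPM in FG_meso. The part of that tissue in the result was not tested. The call was lost without FG_meso replicate 1 (0.275) or 2 (0.0748) or HG_meso replicate 2 (0.252), in a fit to these 4 libraries (0.146), with homeologs summed (0.228) and with a pseudocount of 0.1 (0.123). The difference in the layer effect between regions was −0.94 (SE 0.31) for dlx3.L and did not pass (adjusted p = 0.0552), but passed in the blocked fit (0.00233), after median-of-ratios scaling (0.048), with a filter at 5 TPM (0.0411) and without FG_endo replicate 1 (0.031). That test called 8.32% of all features. Between the endoderm groups none of the 4 genes was called, while 18.6% of all features were. The itln1.L value there turned on single FG_endo libraries. Without replicate 1, which read 0 TPM, it was lower in HG_endo by −1.70 on the log2 scale (adjusted p = 0.0222), and without replicate 2, which read 9.26 TPM, it was higher by 1.65 (0.0124). Without FG_endo replicate 2 the layer effect on itln1.L also differed between regions (−1.86, adjusted p = 0.0461). FG_endo replicate 1 held the fewest features at 1 TPM or more, 15182.

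Dorsal explants held less tp63 and dlx3.L than vehicle foregut or hindgut explants. The tp63.L level was 15.3, 18.6 and 12.3 TPM, that of tp63.S 10.45, 13.5 and 9.27 TPM, and that of dlx3.L 29.1, 32.6 and 27.7 TPM. All these libraries were below every FG_DMSO and HG_DMSO library, and how many of all features lay apart in this way was not counted. The dorsal tp63 ranges overlapped those of other foregut groups, however. In FG_noHS tp63.L was 16.6 to 25.02 TPM and tp63.S 12.8 to 13.8 TPM. In FG_meso they were 12.8 to 17.3 TPM and 10.9 to 16.5 TPM. Low tp63 was thus not particular to the dorsal explants. The itln1.L level was 1323, 1496 and 1005 TPM, below the vehicle libraries of both regions as well.

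Against FG_DMSO, tp63.L (−1.48, SE 0.23), tp63.S (−1.79, SE 0.20) and dlx3.L (−1.79, SE 0.18) were called lower (limma adjusted p = 1.79e-05, 1.04e-07 and 1.04e-08), where 21.4% of all features were (32.3% in either direction), and itln1.L was not (−0.70, SE 0.50, adjusted p = 0.306). A fit restricted to both groups called itln1.L as well (adjusted p = 0.0379). Against HG_DMSO all 4 were called lower, where 5229 of 28863 features were called lower (33.7% of all features in either direction). The log2 difference was −2.24 (SE 0.20, limma adjusted p = 1.66e-09) for tp63.S and −1.41 (SE 0.50, limma adjusted p = 0.0301) for itln1.L. The itln1.L call was lost without HG_DMSO replicate 1 (0.0723) or 3 (0.0756), without dorsal replicate 1 (0.0618) or 3 (0.103), without the number 1 libraries of the inhibitor experiment (0.0976) and with a pseudocount of 0.1 (0.209). The dorsal samples carry no treatment field, so region and treatment cannot be told apart here. The epidermal lists, some of which include the members, were read against FG_DMSO too. Among 28 regulator rows 19 were lower and 5 higher, and among 28 tested differentiation rows 21 were lower and none higher. All 7 ionocyte rows were lower, and among 19 multiciliated rows 9 were lower and none higher. Of the 28 neural plate rows 22 were higher than in FG_DMSO and none lower, their summed level being 1400 to 2278 TPM against 394 to 1055 TPM, where 10.9% of all features were called higher. Of 18 neural crest rows 14 were higher and 2 lower, and of 16 endoderm rows 13 were lower and none higher. Of 23 mesoderm rows 10 were higher and 12 lower, with summed levels of 5578 to 6077 TPM against 263 to 372 TPM. The part of these tissues in the result was not tested.

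The copies of tp63 and of dlx3 stayed at the same order of magnitude, though both ratios moved between groups. The ratio of tp63.L to tp63.S ran from 0.725 to 1.81 over the 33 libraries other than endoderm, with a median of 1.05. It was 0.725 to 0.788 in HG_BIO, 0.768 to 0.802 in HG_DMSO and 0.938 to 1.24 in FG_DMSO. In HG_noHS it was 1.27 to 1.28, in the dorsal explants 1.32 to 1.47 and in FG_noHS 1.3 to 1.81. The level of dlx3.L was 0.503 to 0.93 of that of dlx3.S (median 0.706). This ratio was 0.503 to 0.592 in HG_BIO and 0.873 to 0.93 in the dorsal explants. The itln1 copies were unlike, itln1.S staying between 0.32 and 6.56 TPM in every library.

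Likeness of pattern was measured by Pearson's r over the 15 group means of log2(TPM + 1), among 14153 named rows with at least 5 TPM in some group. The copies tp63.L and tp63.S had r = 0.99, and r was 0.98 between itln1.L and dlx3.L and 0.88 between itln1.L and tp63.L. Most like itln1.L were dnase1l3.L, krt.S, spag6.L, syt13-like.L and ccdc63.L (r from 0.99 to 1.00). Most like dlx3.L were dlx3.S, gale.L, camk1.S, stard10.S and gnb3.L (0.99 to 1.00). For tp63.L they were mmp3.L, acsl4.L, naglu.L, kctd15.L and dse.L (0.97 to 0.98), and for tp63.S kctd15.L, lpgat1.S, naglu.L, dse.L and ttc39c.L (0.96 to 0.98).

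The 15 points include the endoderm groups, where each of the 4 genes is lowest. Over the 13 groups other than endoderm, r was 0.95 between the tp63 copies and 0.71 between itln1.L and dlx3.L. It was −0.33 between itln1.L and tp63.L and −0.04 between dlx3.L and tp63.L. Of the 5 genes named, those still among the 5 most like without the endoderm groups numbered 1 for itln1.L (dnase1l3.L), 0 for each tp63 copy and 2 for dlx3.L (gale.L and dlx3.S).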

How the data were processed

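Per the submitters' processing notes, the authors used FastQC, Trimmomatic and RSEM, with no versions given, and deposited one table of TPM for 37 libraries. The genome build is not given in the sources used here. Columns sum to 999208 to 999778 TPM and hold 15182 to 22769 features at 1 TPM or more. The columns of HG_noHS and HG_HSdkk1 (4 in all) were matched to their group only, since their numbers fit no title.

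Log2(TPM + 1) values of the 28863 features (71.7% of 40271) that reached 1 TPM in 2 or more libraries were fitted with 15 group means in limma 3.58.1 (R 4.3.3, trend option), with 18 contrasts, and called at a Benjamini-Hochberg adjusted p under 0.05 over all features. Errors after ± are SD. The share of all features whose groups do not overlap was not counted. With 2 or 3 libraries per group, a lack of overlap is not a test. The steps were tested on simulated data. The genes and the 10 lists were chosen with earlier results of these data known. Every comparison gives all 4 genes, and list examples are the called rows with the smallest p. All 4 symbols are in the RefSeq gene table, whose coordinates were not used because the build of the values is unknown.

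Same-number libraries deviated together in the inhibitor experiment (r from 0.253 to 0.557 in 45 pairs) and in the layers (0.101 to 0.335 in 12 pairs). In the layers, groups of 2 libraries give the same r for both numbers, so those pairs are not separate values. A blocked fit is quoted wherever it changes a call. Plots used matplotlib 3.10.9 (Python 3.11.15).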

Additional observations from a re-analysis of the deposited data

Results flagged for a closer look

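The effect of DMH1 on tp63.L differed between the regions by 1.99 on the log2 scale (SE 0.33, limma adjusted p = 0.00557). That test called 0.149% of all features. The call was lost in a fit to only the groups compared (limma adjusted p = 0.134). It was also lost without the number 1 libraries of the experiment and with a pseudocount of 0.1. In foregut all 3 treated libraries were below every vehicle library, and in hindgut the treated and vehicle libraries overlapped. A lack of overlap between groups of 3 libraries is not a test.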

How the results depend on the processing

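Of 1089 alternative values for 72 results, 982 kept their direction and their side of the threshold, 17 passed the test newly, 31 lost it, and 59 changed sign, in each case a difference that had not been called. A value that changed sign is counted only there, even where it passed the test. Most of the 72 results were not called to begin with, so the 982 say little about the calls. The call of itln1.L under BIO in foregut was lost in 8 of 16 alternatives. The cause of these changes was not tested. All values are log2 differences with limma adjusted p in brackets. With homeologs summed, each value is for both copies of a gene together. The DMH1 effect on summed tp63 differed between regions by 1.67 (0.018). For summed dlx3, DMH1 in foregut gave −0.75 (0.0996) and mesoderm between regions −0.66 (0.228). Signs changed for tp63.L between vehicle regions (0.22) and under BIO in foregut (0.16), tp63.S under DMH1 in hindgut (0.19) and heat in hindgut (−0.0416), and itln1.L between endoderm groups (0.0200). After median-of-ratios scaling, tp63.S between vehicle regions was 0.63 (0.0476), itln1.L under BIO in foregut −1.69 (0.0538) and the layer effect on dlx3.L between regions −1.03 (0.048). Signs changed for tp63.L between vehicle regions (0.17) and under BIO in foregut (0.0900), itln1.L under heat in foregut (−0.00593), tp63.S under heat in hindgut (−0.00121), and itln1.L (0.17) and dlx3.L (−0.00096) between endoderm groups.

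In fits to only the groups compared, DMH1 in foregut gave −1.60 for tp63.L (0.0999), −1.32 for tp63.S (0.0692) and −0.87 for dlx3.L (0.154), its difference between regions 1.99 for tp63.L (0.134), dorsal against foregut −0.70 for itln1.L (0.0379) and mesoderm between regions −0.87 for dlx3.L (0.146). With a pseudocount of 0.1, BIO in foregut gave −1.79 for itln1.L (0.27), dorsal against hindgut −1.41 for itln1.L (0.209), DMH1 in foregut −0.88 for dlx3.L (0.136), its difference between regions 2.06 for tp63.L (0.113), mesoderm between regions −0.88 for dlx3.L (0.123) and endoderm between regions 1.13 for itln1.L (0.476). With a pseudocount of 5, the DMH1 difference between regions was 1.12 for tp63.S (0.0272) and the layer difference 0.00088 for itln1.L. With a filter at 5 TPM the layer difference was −0.94 for dlx3.L (0.0411). With the replicate block, dlx3.L passed between vehicle regions (−0.46, 0.0092), in the BIO difference between regions (0.90, 0.00328) and in the layer difference (−0.94, 0.00233), and tp63.S in the DMH1 difference (1.31, 0.0103). The block changed no other call. Chosen after seeing the data, leaving out the germ layer libraries gave 1.31 for tp63.S in the DMH1 difference (0.0374), and the inhibitor experiment without its number 1 libraries gave 0.11 for tp63.L between vehicle regions, −1.94 for itln1.L under BIO in foregut (0.122), −1.35 for itln1.L in dorsal against hindgut (0.0976) and 1.75 for tp63.L in the DMH1 difference (0.102).

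Leaving out each replicate in turn gave these ranges. Between vehicle regions they were −0.18 to 0.19 for tp63.L and −0.63 to −0.34 for dlx3.L. Under DMH1 they were −0.21 to 0.17 for itln1.L and −1.04 to −0.75 for dlx3.L in foregut, −0.18 to 0.13 for tp63.S in hindgut, and −0.30 to 0.0782 for itln1.L and 1.12 to 1.44 for tp63.S in the difference between regions. Under BIO they were −1.97 to −1.60 for itln1.L and −0.17 to 0.20 for tp63.L in foregut, −0.25 to 0.0633 for tp63.L and −0.17 to 0.13 for tp63.S in hindgut, and −0.28 to 0.0944 for tp63.L and 0.75 to 1.06 for dlx3.L in the difference. Dorsal against hindgut gave −1.53 to −1.25 for itln1.L. Between unheated regions they were −0.28 to 0.47 for itln1.L and −0.0744 to 0.49 for tp63.L. Under heat they were −0.57 to 0.61 for itln1.L and −0.12 to 0.44 for tp63.L in foregut, −0.59 to 0.50 for itln1.L and −0.21 to 0.24 for tp63.S in hindgut, and −0.65 to 0.53 for itln1.L, −0.53 to 0.0344 for tp63.L and −0.29 to 0.11 for dlx3.L in the difference. Among the layers they were −1.70 to 1.65 for itln1.L and −0.10 to 0.25 for dlx3.L between endoderm groups, −0.41 to 0.0017 for itln1.L and −1.03 to −0.71 for dlx3.L between mesoderm groups, and −1.86 to 1.498 for itln1.L and −1.12 to −0.77 for dlx3.L in the layer difference. The 2 foregut heat pairs correlated at 0.502 but share only a number, and with 2 libraries per group both have the same r by construction. No paired analysis was possible for the hindgut heat groups because the numbers of their columns match no sample. Dorsal and vehicle libraries share only a number, same-number pairs correlating at −0.00657 to 0.0721 with foregut and −0.0884 to 0.00957 with hindgut. Taking the dorsal number as a replicate block, an alternative chosen after seeing the data, changed no call of the 4 genes.

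Of the 5 genes most like each member, those still named after median-of-ratios scaling numbered 2 for itln1.L and 3 for tp63.S, with a pseudocount of 0.1 they numbered 2 for itln1.L, and with a pseudocount of 5 they numbered 2 for itln1.L, 3 for tp63.L and 2 for tp63.S.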
